A study of Rattus norvegicus with 24 samples.

Results

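The genes of the rat major histocompatibility complex (MHC) and of antigen processing were examined in the liver of rats fed cholesterol with or without kiwifruit. The members were all probes that are not controls whose gene name on the array starts with RT1-, the name of the rat MHC, and the probes of 11 further genes, namely Cd74, B2m, Tap1, Tap2, Tapbp, Psmb8, Psmb9, Psmb10, Psme1, Psme2 and Ciita. They came to 55 genes with 66 probes, of 21654 gene names and 30367 probes in all. Male Wistar rats were used, and all 3 groups received a diet with 1% cholesterol for 42 days. The Ch group received this diet alone, the ChGENE group received it with 5% freeze-dried Geneva kiwifruit (Actinidia arguta), and the ChHAYW group received it with 5% freeze-dried Hayward kiwifruit (Actinidia deliciosa). A group without cholesterol was not analysed here, so every comparison is between cholesterol-fed rats, and the sources used here do not give the age of the rats. The groups were of 8 rats, each rat with an array of its own. All 8 arrays of a diet lay on 1 slide that held no other diet, so an effect of diet and an effect of slide cannot be told apart in any comparison below. RNA came from whole liver, where fewer cells of a type and less RNA per cell cannot be told apart.

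MHC class I molecules carry short peptides from inside the cell to its surface, where CD8 T cells read them. The peptides are cut by the proteasome, in which Psmb8, Psmb9 and Psmb10 replace the standard catalytic subunits under interferon and Psme1 and Psme2 form an activating cap, then pumped into the endoplasmic reticulum by Tap1 and Tap2, and loaded with the help of Tapbp onto a heavy chain paired with B2m, the light chain. Class II molecules carry peptides from outside the cell for CD4 T cells and consist of an alpha and a beta chain, guided by Cd74, the invariant chain, with the DM molecule exchanging peptides, the DO molecule restraining DM, and Ciita switching the genes on. In liver most cells carry class I, while class II is mainly found on Kupffer cells, the resident macrophages, and on dendritic cells, B cells and sinusoidal endothelium.

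Of the 55 genes, 35 were class I (43 probes), 9 were class II (11 probes) and 11 were the named processing genes (12 probes). Most RT1 probes lay on chromosome 20, where the MHC is, at the rn4 coordinates that the array files give. Class I genes are close copies of each other, and 8 of the 43 class I probes named RefSeq transcripts of more than 1 gene symbol, so their signal cannot be given to 1 gene. Of the 903 pairs of class I probes, 12 pairs, which joined 14 probes, shared over 85% of their bases over at least 25 aligned bases. The pairs below show how near these copies are. Their shares of identical bases were nearly the same, 88.3% and 87.9%, but their signals followed each other to different degrees. Whether this share orders the correlations over the 12 pairs was not tested. Capitals mark the bases in which the members of a pair differ. The probes of RT1-A1, a classical class I gene (chr20:5059134-5059193, plus strand, rn4), and of RT1-CE11 (chr20_random:133569-133628, plus strand, rn4) were identical at 53 of 60 bases:
RT1-A1: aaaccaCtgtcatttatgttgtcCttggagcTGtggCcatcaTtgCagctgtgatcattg
RT1-CE11: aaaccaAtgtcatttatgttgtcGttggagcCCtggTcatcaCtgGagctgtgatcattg
The probes of RT1-CE5 (chr20:3510942-3511001, minus strand, rn4) and RT1-S2 (chr20:2795080-2795139, plus strand, rn4) were identical at 51 of 58 aligned bases:
RT1-CE5: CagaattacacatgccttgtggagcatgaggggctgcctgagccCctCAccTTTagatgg
RT1-S2: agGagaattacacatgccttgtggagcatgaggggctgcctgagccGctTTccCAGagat
Across the 24 rats, with the mean of each diet removed, the signals of RT1-A1 and RT1-CE11 had a Pearson r of 0.49 and those of RT1-CE5 and RT1-S2 an r of 0.98. A probe of RT1-M6-1 that also names RT1-A3 shared 31 of 32 aligned bases with the RT1-CE5 probe and had an r of 0.98 with it. The RT1-CE5 probe shown also names RT1-CE7 and RT1-CE12. Values of class I genes below are therefore values of probes, and which copy a signal came from is uncertain. No annotation of the rn4 build was used here, so exons and untranslated regions are not given for the probes.

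RefSeq promoters (GRCr8 assembly, from 250 bases before to 50 after the start of the gene) were found for 45 of the 55 genes, 27 of class I, 8 of class II and 10 of processing. Class II promoters are known for an X box and a Y box, which bind the complex that Ciita works through, and both were searched on both strands by their core letters. The X box core CAACNGATG was in 3 of 8 class II promoters, in 0 class I and 0 processing promoters, and in 0.586% of all 33469 promoters. The Y box core ATTGG was in 8 of 8 class II promoters, 19 of 27 class I promoters and 4 of 10 processing promoters, and in 37.5% of all promoters. These 3 class II windows are shown because both cores stand in the same order and at nearly the same distance, with the X box and Y box cores in capitals; RT1-Da is at chr20:4515319-4515380 (plus strand), RT1-Db1 at chr20:4560228-4560288 (minus strand) and RT1-DOb at chr20:4627592-4627650 (minus strand), all GRCr8:
RT1-Da: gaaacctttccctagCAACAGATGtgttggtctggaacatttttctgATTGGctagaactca
RT1-Db1: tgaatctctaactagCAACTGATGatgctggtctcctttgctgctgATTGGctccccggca
RT1-DOb: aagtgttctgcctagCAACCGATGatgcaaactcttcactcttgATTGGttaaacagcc
The interferon-stimulated element, searched as GAAANNGAAA on both strands, was in 7 of 10 processing promoters (B2m, Tap1, Tap2, Tapbp, Psmb8, Psmb10 and Psme2), in 3 of 27 class I promoters (RT1-N3, RT1-S2 and RT1-S3), in 0 of 8 class II promoters and in 3.92% of all promoters. The window of Psmb9 held no match to these letters. The element is in capitals in the windows of Tap1 (chr20:4668630-4668689, minus strand), where it reads on the opposite strand, Psmb10 (chr19:50743331-50743390, minus strand) and B2m (chr3:129549155-129549214, plus strand), shown because Tap1 and Psmb10 moved with Psmb9 among the rats and B2m did not:
Tap1: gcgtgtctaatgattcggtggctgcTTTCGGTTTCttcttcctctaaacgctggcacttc
Psmb10: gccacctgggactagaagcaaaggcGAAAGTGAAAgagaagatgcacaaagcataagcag
B2m: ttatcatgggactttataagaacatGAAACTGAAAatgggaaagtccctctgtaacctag
The enhancer A core GGGATTCCC, to which NF-kappaB binds, was in 7 of 27 class I promoters (RT1-A1, RT1-A2, RT1-CE4, RT1-CE10, RT1-CE11, RT1-CE13 and RT1-CE16), in 0 of the class II and processing promoters, and in 0.365% of all promoters. The class I promoters are related copies, so these are not independent matches, and a match in letters is not a measured binding site.

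Levels are given as log2 of the signal relative to the 75th percentile of the same array, so that 0 is the level of that percentile. This percentile, a measure of the brightness of an array, was lowest in Ch, with a median of 421 signal units and a range of 188 to 653. For ChGENE the median was 675 (388 to 775) and for ChHAYW 731 (409 to 1049). Detection was taken from the scanner software, and a probe was called above background on an array if at least 1 of every 2 of its spots carried that mark. By this measure 46 of the 66 member probes were above background on all 24 arrays, 13 on some and 7 on none. Of the 43 class I probes, 29 (26 genes) were above background on all arrays. The 6 class I probes above background on no array were those of RT1-M1-4, RT1-M1-5 (both probes), RT1-M10-1 and RT1-M5 and 1 of the probes of RT1-M6-1, all nonclassical genes of the M region. Of the 11 class II probes, 7 were above background on all arrays, namely those of RT1-Da, RT1-Db1, RT1-Bb, RT1-DMa and RT1-DMb. RT1-DOa, the alpha chain of DO, was above background on no array, and its beta chain RT1-DOb was so on 1 Ch, 3 ChGENE and 1 ChHAYW array. RT1-Ha was above background on 1 ChHAYW array alone, and RT1-Ba, the alpha chain that pairs with RT1-Bb, on 3 Ch, 5 ChGENE and 7 ChHAYW arrays. Among the processing genes, Tap1 was above background on 7 Ch arrays and on all kiwifruit arrays, Ciita on 5 Ch arrays and on all kiwifruit arrays, and the other 10 probes on every array. The lower Ch counts of Tap1, Ciita and RT1-Ba stand beside the lower share of all probes above background in Ch. The part of that share in them was not tested.

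The first comparison asked whether Geneva kiwifruit changed these genes in cholesterol-fed liver. No member passed the test, but the class II chains and several processing genes lay at a higher mean level in ChGENE while the class I probes spread on both sides of no difference. In limma's test, adjusted over all 30367 probes with the method of Benjamini and Hochberg and with a fold change of at least 1.3, 0 of the 66 member probes were called, and the methods' t-test also called 0. Over the whole array 97 probes were called, or 0.319%. At an unadjusted p under 0.05, with no fold cut, there were 10 member probes, 4 of them higher in ChGENE. Of all probes, 24.6% had such a p together with a fold change of at least 1.3, most of them lower. The member count and this share are therefore not counted alike. In this and in both other comparisons the values of the diets overlapped for all 66 member probes. Overlap was not counted over all probes, so this is not read as a trait of the members. Because the median of all probes was itself −0.16 on the log2 scale in ChGENE minus Ch, the class medians are to be read beside it. The median log2 difference was 0.44 over the 11 class II probes (9 higher), 0.27 over the 12 processing probes (10 higher) and 0.02 over the 43 class I probes (23 higher), and the class I value lay between −0.01 and 0.50 under other scalings. Without single rats the class I median ran from −0.04 to 0.07 and the processing median from 0.16 to 0.35, with 0.16 without ChGENE rat 8 and 0.17 without Ch rat 8. Among probes above background on all arrays of at least 1 of the diets, all 7 class II probes were higher, by 0.26 to 0.61, and 21 of 33 class I probes were, with a median of 0.07, where all such probes of the array had a median of −0.02.

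**Figure D1:**
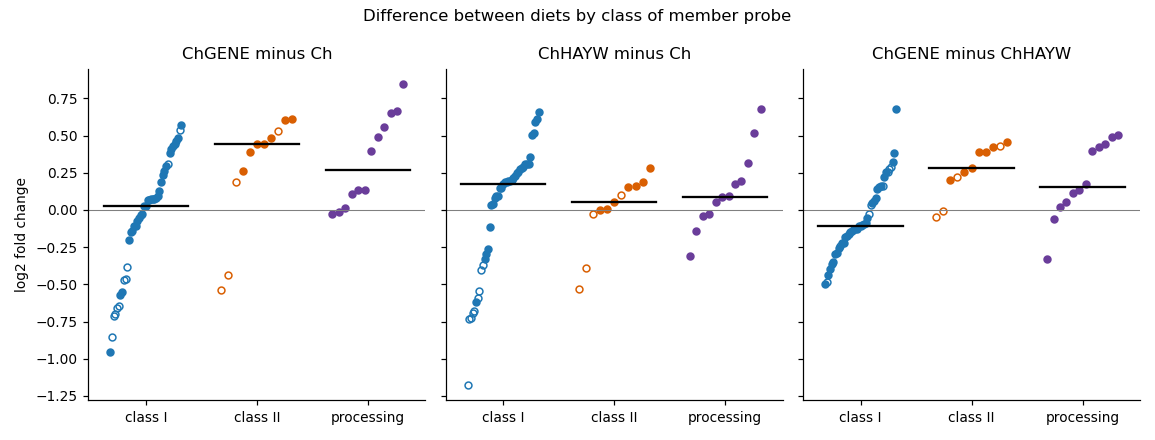
Log2 difference between diets (vertical axis) of each member probe, by class, in the 3 comparisons; bars are medians over all probes of a class and open circles are probes not above background on all 8 arrays of either diet, which carry no measured change where they were above background on none. In ChGENE minus Ch the 7 filled class II points lie between 0.26 and 0.61, while the class I points spread on both sides of 0.

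Tap1, a subunit of the peptide pump, had the largest mean difference of the processing genes. Its level in Ch ran from −3.69 to −1.75 with a median of −2.05, in ChGENE from −2.55 to −0.29 (median −1.71) and in ChHAYW from −2.59 to −0.57 (median −2.03). The 4 highest ChGENE rats exceeded all Ch rats, and the other 4 lay within the range of Ch. The difference ChGENE minus Ch was 0.85 (SE 0.36, n = 8 and 8, limma adjusted p = 0.138). Tap2, its partner, ran from 0.27 to 2.05 in Ch (median 1.49) and from 0.79 to 2.00 in ChGENE (median 1.45), a difference of 0.14 (SE 0.25). Tapbp differed by 0.01 (SE 0.13), with medians of 0.57 and 0.61.

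The interferon-inducible proteasome subunits varied more among rats than between diets. Psmb8 ran from −0.66 to 1.77 in Ch (median 0.84) and from −0.74 to 2.58 in ChGENE (median 1.04), a mean difference of 0.66 (SE 0.50, limma adjusted p = 0.425). Psmb9 ran from 0.22 to 2.19 in Ch (median 1.84) and from 0.96 to 3.49 in ChGENE (median 1.96), a mean difference of 0.56 (SE 0.34, limma adjusted p = 0.315). In both genes 3 ChGENE rats, numbers 4, 5 and 8, lay above every Ch rat, and the other 5 lay within the range of Ch or, for Psmb8 in ChGENE rat 3, just below it. Rats 4 and 5 had nearly the same levels in many members, as at Psmb8 (2.37 and 2.31) and Psmb9 (2.81 and 2.87). So had ChHAYW rats 6 and 7, as at B2m (5.66 and 5.69) and Psmb10 (2.83 and 2.81). Whether the arrays of such rats are independent was not tested. Psmb10 ran from 2.07 to 3.85 in Ch (median 3.28) and from 3.00 to 4.69 in ChGENE (median 3.33), a mean difference of 0.40 (SE 0.28). The cap subunits differed less: Psme1 by 0.13 (SE 0.12) at its brighter probe and Psme2 by −0.03 (SE 0.19). B2m, the light chain of every class I molecule, ran from 4.88 to 6.10 in Ch (median 5.54) and from 4.5 to 6.20 in ChGENE (median 5.68), and its means differed by −0.02 (SE 0.24).

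The higher ChGENE levels of Cd74 and RT1-Da came from the same rats. Cd74, the invariant chain, ran from 1.34 to 3.62 in Ch (median 2.13) and from 1.21 to 3.36 in ChGENE (median 3.08). The 5 ChGENE rats numbered 1, 4, 5, 7 and 8 lay at 2.97 or above, as did 1 Ch rat, number 6, which had the highest value of all. The mean difference was 0.49 (SE 0.34, limma adjusted p = 0.385). RT1-Da ran from 0.37 to 2.65 in Ch (median 0.88) and from 0.03 to 2.39 in ChGENE (median 1.89), a mean difference of 0.44 (SE 0.39, limma adjusted p = 0.497), and RT1-Db1 at its brighter probe differed by 0.39 (SE 0.38). For RT1-Da the lowest value of all 3 diets was also a ChGENE value, that of rat 3. RT1-Bb, the beta chain of the other class II molecule, ran from 3.04 to 4.45 in Ch (median 3.73) and from 3.48 to 4.32 in ChGENE (median 4.03), a mean difference of 0.26 (SE 0.19) at its brighter probe and 0.48 (SE 0.29) at the other. Both chains of the peptide exchanger DM differed by 0.61, with an SE of 0.39 for RT1-DMa and 0.35 for RT1-DMb. RT1-DMa ran from −2.35 to −0.11 in Ch (median −1.35) and from −2.12 to 0.53 in ChGENE (median −0.77). RT1-DMb ran from −1.35 to 0.34 in Ch (median −1.01) and from −1.74 to 0.86 in ChGENE (median −0.20). Ciita, the switch of class II genes, was dim and ran from −5.03 to −2.97 in Ch (median −4.00, above background on 5 arrays) and from −4.60 to −2.57 in ChGENE (median −3.18, on 8 arrays), a mean difference of 0.66 (SE 0.32, limma adjusted p = 0.192). RT1-Ba, above background on some arrays of each diet, differed by 0.19 (SE 0.39), and RT1-DOb, above background on 1 and 3 arrays, by 0.53 (SE 0.22, limma adjusted p = 0.134). Under normexp background correction Ciita differed by −0.08, RT1-Ba by −0.33 and RT1-DOb by −0.34, so the sign of these 3 dim genes depended on the background correction. The small differences of B2m, Psme2 and Tapbp also changed sign under some scalings and without some single rats, and that of Tap2 did without Ch rat 3.

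**Figure D2:**
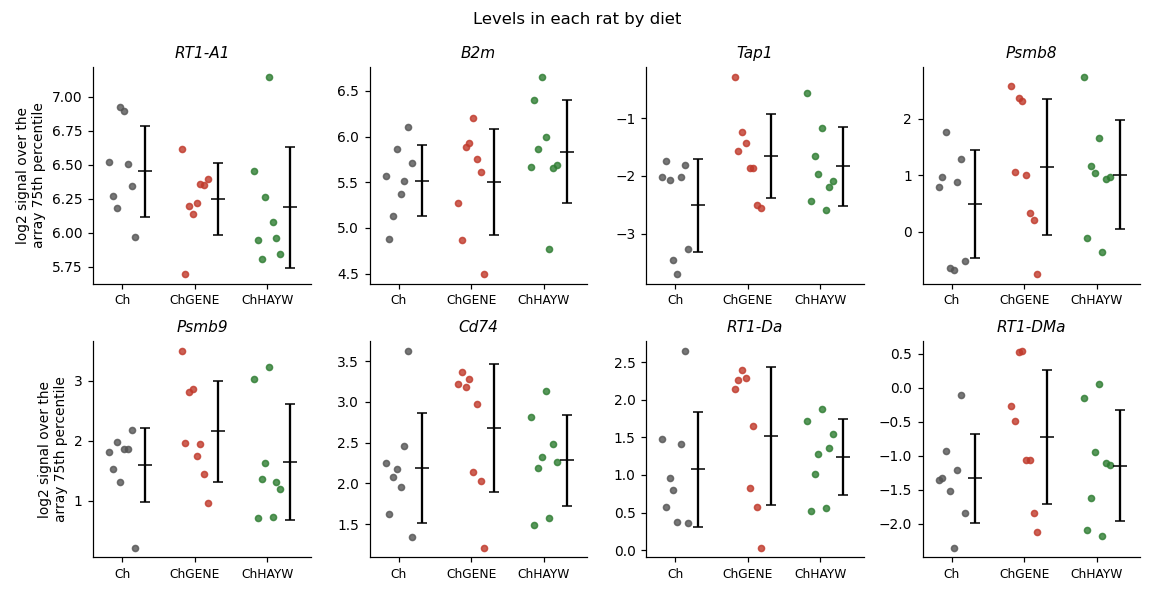
Level of 8 members in each rat (points; vertical axes are log2 signal relative to the 75th percentile of the array and differ between panels) by diet, with mean ± SD (bars, n = 8 rats), each gene at its brightest probe. The diets overlap in every panel, and in Cd74 and RT1-Da the ChGENE rats lie apart from each other by more than the means of the diets differ.

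The class I heavy chains went in both directions in ChGENE, with differences of −0.96 to 0.57 over the 33 probes above background on all arrays of at least 1 of the diets. RT1-A1 ran from 5.97 to 6.93 in Ch (median 6.42) and from 5.70 to 6.62 in ChGENE (median 6.29) at its brighter probe, a mean difference of −0.20 (SE 0.16), and at its other probe the difference was −0.02 (SE 0.16). The 5 member probes with the smallest p were of the M region, and the 4 of them from RT1-M1-5 (both probes), RT1-M5 and RT1-M1-4 were above background on no array, so no fold is given. RT1-M4, above background on 7 Ch and 8 ChGENE arrays, ran from −4.46 to −1.88 in Ch (median −3.25) and from −5.09 to −3.14 in ChGENE (median −4.13). The highest ChGENE rat lay near the median of Ch, and the mean difference was −0.96 (SE 0.33, limma adjusted p = 0.0782). That p was 0.0402 under median scaling, 0.0430 under normexp background correction and 0.0490 without ChGENE rat 2. The brightness of the arrays moved with this result, with the 75th percentiles given above, and its part in it was not tested.

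The second comparison asked the same of Hayward kiwifruit, and no member passed the test. In ChHAYW against Ch limma called 0 of the 66 member probes, as did the methods' t-test, where it called 0% of all probes. At an unadjusted p under 0.05, with no fold cut, there were 11 member probes, 3 of them higher in ChHAYW. Of all probes, 22.8% had such a p together with a fold change of at least 1.3. The median log2 difference was 0.17 over class I (29 of 43 higher), 0.06 over class II (7 of 11 higher) and 0.09 over processing (8 of 12 higher), with −0.18 over all probes. These medians were small and moved when single rats were left out. The class I median then ran from 0.06 (without ChHAYW rat 3, and 0.09 without rat 5) to 0.23, the class II median from −0.03 (without Ch rat 8) to 0.18 (without Ch rat 6) and the processing median from 0.00316 (without ChHAYW rat 5) to 0.19 (without ChHAYW rat 1). Differences between the classes were not tested. Among probes above background on all arrays of at least 1 of the diets, 28 of 33 class I probes were higher in ChHAYW, with a median of 0.20 where all such probes had −0.01.

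The same genes were read in ChHAYW. Cd74 ran from 1.49 to 3.14 in ChHAYW (median 2.29) and differed from Ch by 0.09 (SE 0.29). RT1-Da (0.52 to 1.88, median 1.32) differed by 0.16 (SE 0.31), RT1-DMa by 0.19 (SE 0.35), RT1-DMb by 0.16 (SE 0.29) and Ciita by 0.18 (SE 0.26). RT1-Bb differed by 0.01 (SE 0.19) and RT1-Db1 by −0.00194 (SE 0.28) at their brighter probes. None of these differences exceeded its standard error. Tap1 differed by 0.68 (SE 0.35, limma adjusted p = 0.232) and Psmb8, which ran from −0.35 to 2.73 in ChHAYW (median 1.01), by 0.52 (SE 0.44). Psmb9 differed by 0.05 (SE 0.38), Psmb10 by −0.03 (SE 0.28), Tapbp by −0.04 (SE 0.18), Psme1 by 0.19 (SE 0.12), Psme2 by −0.14 (SE 0.21) and Tap2 by −0.31 (SE 0.31). B2m ran from 4.77 to 6.65 in ChHAYW (median 5.78) and differed by 0.32 (SE 0.24, limma adjusted p = 0.396). RT1-Ba differed by −0.03 (SE 0.37) and RT1-DOb by 0.10 (SE 0.24). The sign turned under some scaling or background correction for RT1-Ba, RT1-DMa, RT1-DOb, RT1-Db1, RT1-Ha, Ciita, Psmb10, Psme2, Tap2 and Tapbp, and for RT1-Bb, Cd74 and Psmb9 when some single rats were left out.

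Among the class I probes, RT1-CE2 and RT1-M4 were the named ones with the smallest p. The RT1-CE2 probe that also names RT1-A3 (chr20:3577352-3577411, minus strand, rn4) ran from 1.19 to 2.17 in Ch (median 1.5) and from 1.53 to 3.37 in ChHAYW (median 2.07), a mean difference of 0.59 (SE 0.23, limma adjusted p = 0.130; 0.0443 under normexp background correction). Above every Ch rat lay 4 ChHAYW rats, with rat 5 highest. The other RT1-CE2 probe ran from 3.31 to 3.94 in Ch and from 3.32 to 4.54 in ChHAYW and differed by 0.22 (SE 0.19). RT1-M4, above background on 6 ChHAYW arrays, ran from −5.43 to −2.94 there (median −4.40) and differed from Ch by −1.18 (SE 0.40, limma adjusted p = 0.110). Its p was 0.0422 under median scaling, 0.0443 under normexp background correction and 0.0387 without ChHAYW rat 3. The other 3 of the 5 smallest p-values belonged to probes of RT1-M5, RT1-M10-1 and RT1-M1-5 that were above background on no array.

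The third comparison set the cultivars against each other, and with it tested whether their differences from Ch were unequal. In ChGENE against ChHAYW limma and the methods' t-test called 0 of the 66 member probes, where limma called 2 of all probes, or 0.00659%. With no fold cut, 2 member probes had an unadjusted p under 0.05 (2 higher in ChGENE). Of all probes, 5.93% had such a p together with a fold change of at least 1.3. The median log2 difference ChGENE minus ChHAYW was 0.29 over class II (9 of 11 higher), 0.15 over processing (10 of 12 higher, between −0.03 and 0.18 under other scalings) and −0.11 over class I (16 of 43 higher), with −0.01 over all probes. The class II median was 0.10 under spike-in scaling and ran without single rats from 0.18 (without ChHAYW rat 1) to 0.46 (without ChGENE rat 3). The processing median ran from 0.00845 (without ChGENE rat 8) to 0.37 (without ChHAYW rat 3) and the class I median from −0.17 to −0.01 (without ChHAYW rat 3). All 7 class II probes above background on all arrays of at least 1 of the diets were higher in ChGENE, by 0.20 to 0.45. RT1-M3-1, a nonclassical class I gene whose product presents formylated peptides, had the smallest p. It ran from −2.17 to −0.65 in ChGENE (median −1.32) and from −2.44 to −0.58 in ChHAYW (median −2.15), a mean difference of 0.68 (SE 0.26, limma adjusted p = 0.503). Its highest value was nonetheless a ChHAYW rat. RT1-DOb differed by 0.43 (SE 0.19), RT1-S3 by −0.50 (SE 0.24), RT1-Cl by −0.40 (SE 0.19) and Tap2 by 0.45 (SE 0.26), with limma adjusted p-values of 0.572, 0.611, 0.609 and 0.695. For the other named genes the difference was 0.39 for Cd74 (SE 0.32), 0.29 for RT1-Da (SE 0.35), 0.51 for Psmb9 (SE 0.42), 0.43 for Psmb10 (SE 0.29), 0.14 for Psmb8 (SE 0.50) and −0.33 for B2m (SE 0.27), all with limma adjusted p-values of 0.749 or more. The sign of the differences of RT1-Ba, RT1-Ha, Psmb8, Psme1, Psme2, Tap1 and Tapbp turned under some scaling or without some single rat. The 3 comparisons share their arrays in pairs, so their values for a gene are not independent of each other.

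The same pathway was followed outside the members in lists of genes, and lists of cell type markers are read below. In each list limma called 0 genes in all 3 comparisons, beside 0.319%, 0% and 0.00659% of all probes. With no fold cut, 0 to 2 genes of a pathway list and 0 to 3 of a marker list had an unadjusted p under 0.05. The proteasome list, namely Psmb5, Psmb6 and Psmb7, which the inducible subunits replace, and Psme3, a separate activator of the proteasome, had a median difference of 0.32 in ChGENE and 0.32 in ChHAYW against Ch. Of the 6 genes of peptide loading and trimming (Erap1, Calr, Canx, Pdia3, Tapbpl and Hspa5), 5 were higher in ChGENE than in Ch, with a median of 0.18, and the 6 were higher than in ChHAYW, with a median of 0.34. The endosomal proteases on the array, which cut Cd74 and antigens for class II, had a median of 0.06 in ChGENE and 0.02 in ChHAYW, the 15 regulators on the array one of 0.12 and 0.02, and the 2 ligases of surface turnover, March1 and March8, one of −0.02 and −0.03. The genes with the smallest p among these and the interferon list were Ctsl1, Canx, Nfya and Lgmn in ChGENE against Ch. Ctsl1, a cathepsin, had a mean of 6.92 ± 0.13 (SD, n = 8) in Ch, 6.44 ± 0.17 in ChGENE and 6.85 ± 0.12 in ChHAYW, a difference of −0.48 from Ch (SE 0.11, limma adjusted p = 0.0560) and of −0.41 from ChHAYW (SE 0.10, limma adjusted p = 0.213). Canx, a chaperone of the heavy chain, differed by 0.50 (limma adjusted p = 0.107), Nfya, a subunit of the factor that binds the Y box and above background on 13 arrays, by 0.55 (limma adjusted p = 0.118) and Lgmn, a protease, by 0.61 (limma adjusted p = 0.153). In ChHAYW against Ch the smallest p belonged to Irf2, above background on no array, Ctsd (−0.23, limma adjusted p = 0.153), Psme3 (0.44, limma adjusted p = 0.155) and Ctsb (−0.31, limma adjusted p = 0.163). In ChGENE against ChHAYW Hspa5, a chaperone of the endoplasmic reticulum, differed by 0.50 (limma adjusted p = 0.314), Calr, a lectin chaperone, by 0.44 (limma adjusted p = 0.531) and Psmb5 by 0.20 (limma adjusted p = 0.687).

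Markers of the cell types of liver, those that carry class II among them, were read beside the members. The 7 Kupffer cell and macrophage markers on the array were all higher in mean level in ChGENE than in Ch, with a median of 0.58 beside 0.44 for class II. In ChHAYW 5 of the 7 were higher than in Ch, with a median of 0.31 beside 0.06 for class II. Above background on all 24 arrays were 6 of the 7. The summed signal of the 7 markers, as a multiple of the 75th percentile of the array, ran from 21.4 to 55.1 in Ch (median 33.2), from 20.1 to 96.6 in ChGENE (median 41.5) and from 23.5 to 74.1 in ChHAYW (median 39.0). Cd68 differed from Ch by 0.79 in ChGENE (SE 0.38, limma adjusted p = 0.190) and by 0.54 in ChHAYW (SE 0.33). Sinusoidal endothelium had a median of 0.49 over 5 markers in ChGENE and 0.38 in ChHAYW, with summed signals of 3.16 to 6.93 in Ch, 3.41 to 11.4 in ChGENE and 4.28 to 6.45 in ChHAYW. B cell markers had a median of 0.56 and 0.24, but 1 of the 6 was above background on all arrays (Pax5) and Ms4a1, the defining CD20, on none, and their summed signal ran lower in ChGENE (1.25 to 2.07) than in Ch (1.76 to 2.77) and ChHAYW (1.49 to 2.78). T cell markers had medians of 0.32 and 0.22 over 6 genes, with summed signals of 0.70 to 1.25 in Ch, 0.59 to 1.84 in ChGENE and 0.67 to 1.74 in ChHAYW. None of the 7 dendritic cell markers was above background on all arrays and Xcr1 was so on none. Their medians were 0.02 and −0.06 and their summed signals 0.15 to 0.42 in Ch, 0.16 to 0.38 in ChGENE and 0.21 to 0.38 in ChHAYW. The 6 hepatocyte markers, which mark the labelled tissue, were above background on all arrays and bright, with a summed signal of 1541 to 3092 in Ch, 1403 to 2367 in ChGENE and 1132 to 2279 in ChHAYW and median differences of −0.39 and −0.28 from Ch. Interferon response genes had a median of 0.43 in ChGENE and 0.63 in ChHAYW, with summed signals of 37.4 to 79.8 in Ch, 30.0 to 191 in ChGENE and 36.1 to 126 in ChHAYW. The class II median in ChHAYW was 0.06 over all 11 probes. It was 0.16 over the 7 probes above background on all arrays of at least 1 of the diets. The part of these markers in the class II and processing values was not tested.

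The members differed among rats of the same diet, and this was measured by the pooled within-diet SD of each probe and its percentile among the probes above background on all 24 arrays. The median SD of those probes was 0.32 and the 90th percentile lay at 0.60. Over that percentile were 5 of 7 class II probes, 3 of 10 processing probes and 5 of 29 class I probes. The median percentile was 95.5 for class II, 86.1 for processing and 67.3 for class I. Psmb8 had the widest spread of all members, with an SD of 1.04 (percentile 99.3), which exceeded its mean difference in every comparison of diets. RT1-DMa (0.83, percentile 97.6), Psmb9 (0.82, percentile 97.4), RT1-Da (0.75, percentile 96.0) and the brighter RT1-Db1 probe (0.73, percentile 95.5) followed. Cd74 had an SD of 0.68 (percentile 93.9) and B2m 0.52 (percentile 83.9). In class I, RT1-CE10, RT1-N3, RT1-T24-4, RT1-N2 and RT1-CE12 lay over the 90th percentile, but the count of 5 became 3 under median scaling and 0 under scaling to the spike-in probes. At the other end Psme1 had an SD of 0.19 (percentile 11.6) at its brighter probe, so that parts of the same proteasome path ranged from the steadiest to the least steady levels of the members.

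**Figure D3:**
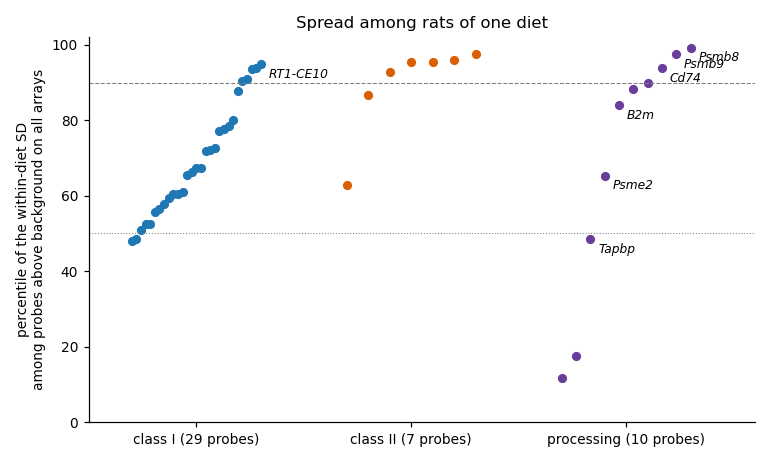
Percentile of the pooled within-diet SD (vertical axis) of each of the 46 member probes above background on all 24 arrays, by class, among all such probes of the array; the dashed line is the 90th and the dotted line the 50th percentile. Class II points lie at the top, with 5 of 7 above the dashed line, while class I points reach down to 48.1 and Psme1 to 11.6.

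Whether the members moved together from rat to rat was examined over 24 rats after the mean of each diet was removed, with permutation tests within diet (100000 draws, two-sided) adjusted over 16 relations. Of these, 15 passed an adjusted p of 0.05, 8 of 8 for Cd74 and 7 of 8 for Psmb9, and 15 also passed without the 2 rats farthest from the median of the first gene. The within-diet values are also the values within a slide. The permutations treat all rats as independent, which was not tested for the rats named above with nearly the same levels. The rats left out were not among these. Cd74 followed the class II chains most closely, with RT1-Da at r = 0.96 (rho = 0.94, 24 rats, permutation p of 1e-05 for both, the smallest the draws can give) and, within Ch, ChGENE and ChHAYW, values of 0.94, 0.98 and 0.96. Without ChGENE rat 3 and Ch rat 6 its r was 0.93. RT1-Db1 had r = 0.96 (rho = 0.96), RT1-DMb 0.89 (rho = 0.86), RT1-DMa 0.86 (rho = 0.85) and Ciita, the switch gene, 0.90 (rho = 0.88), each with a permutation p of 1e-05 (adjusted p = 1.78e-05), and Ciita kept 0.94, 0.94 and 0.76 within the diets and 0.85 without the 2 rats. RT1-Bb had r = 0.78 (rho = 0.79, permutation p = 6e-05 for r and 5e-05 for rho) and RT1-Ba, above background on 15 arrays, r = 0.74 (rho = 0.61, permutation p = 0.00012 for r and 0.00284 for rho). The class II chains, the invariant chain and their switch thus varied together among rats of the same diet.

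Psmb9 stood for the class I path in the same way. Its closest partner was Psmb10, with r = 0.94 (rho = 0.92, permutation p of 1e-05 for both) and 0.88, 0.96 and 0.97 within Ch, ChGENE and ChHAYW. It was 0.91 without ChHAYW rats 3 and 5. Tapbp followed with r = 0.84 (rho = 0.84), Psmb8 with 0.83 (rho = 0.81) and Tap1 with 0.79 (rho = 0.74), all with permutation p-values of 4e-05 or less. Tap1 had r = 0.50 within Ch, 0.95 within ChGENE and 0.93 within ChHAYW. Psme2 had r = 0.70 (rho = 0.61, permutation p = 0.00035 for r), Tap2 0.67 (rho = 0.64, permutation p = 0.00093) and Psme1 0.65 (rho = 0.47, permutation p = 0.00136), and without the 2 rats these became 0.56, 0.52 and 0.51. B2m was the exception, with r = 0.18 (rho = 0.08, permutation p = 0.457 for r and 0.728 for rho) and −0.09, 0.34 and 0.15 within the diets. Cd74 and Psmb9, from the class II and the class I path, had r = 0.79 with each other (rho = 0.79, permutation p of 1e-05 for both, 0.80 without the 2 rats).

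**Figure D4:**
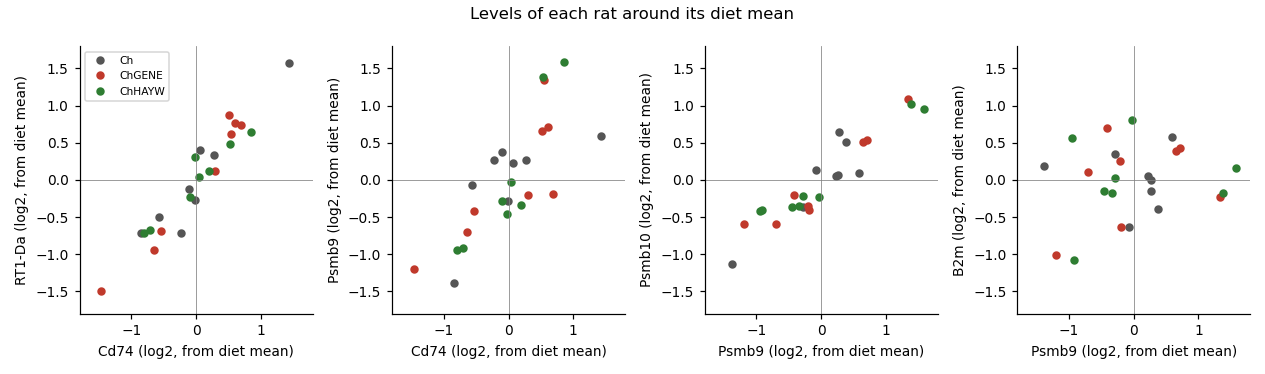
Levels of 4 pairs of members in each of the 24 rats as log2 distance from the mean of the diet on both axes, coloured by diet. The points of RT1-Da against Cd74 and of Psmb10 against Psmb9 lie along a line (r of 0.96 and 0.94), those of Psmb9 against Cd74 more loosely (0.79), and those of B2m against Psmb9 form a cloud (0.18).

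Over all 46 member probes above background on every array, the correlations within class II had a median of 0.85 over 21 pairs, with 100% over 0.5. Within class I the median was 0.60 over 406 pairs (58.1% over 0.5), among processing probes 0.61 over 45 pairs, between class I and class II 0.57, between class I and processing 0.53 and between class II and processing 0.40. All probe pairs of the array had a median of 0.02, with 12.4% over 0.5. These values describe the same 24 arrays and share their scaling, and class I pairs can share signal through near-identical probes. Class I probes such as the brighter probes of RT1-CE5 and RT1-S2 and that of RT1-CE16 had an r of 0.82 to 0.84 with Psmb9 and 0.56 to 0.65 with Cd74. A small set stood apart from them: RT1-CE10, RT1-CE11, RT1-CE4 and the RT1-CE2 probe that also names RT1-A3 had r values of 0.04 to 0.14 with Cd74, and the closest member of each was another of the set, at 0.80 to 0.92. The first 3 of them carried the enhancer A core in their promoters, as did RT1-A1, RT1-A2, RT1-CE13 and RT1-CE16, which had r values of 0.78 to 0.84 with Psmb9 (for RT1-A1 at the probe shown above, and 0.54 at the brighter one). The RT1-CE4 probe also names RT1-CE15, whose promoter held no enhancer A core, so which gene gave its signal is uncertain. RT1-N2 had a median r of −0.04 with the other members, but the values had both signs. They ran from −0.53 with the dimmer RT1-Bb probe to 0.63 with the brighter RT1-A1 probe. For RT1-N2, Ch rat 4 reached 2.13 where the other Ch rats lay at 1.00 or below. B2m had no r above 0.36 with any member.

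**Figure D5:**
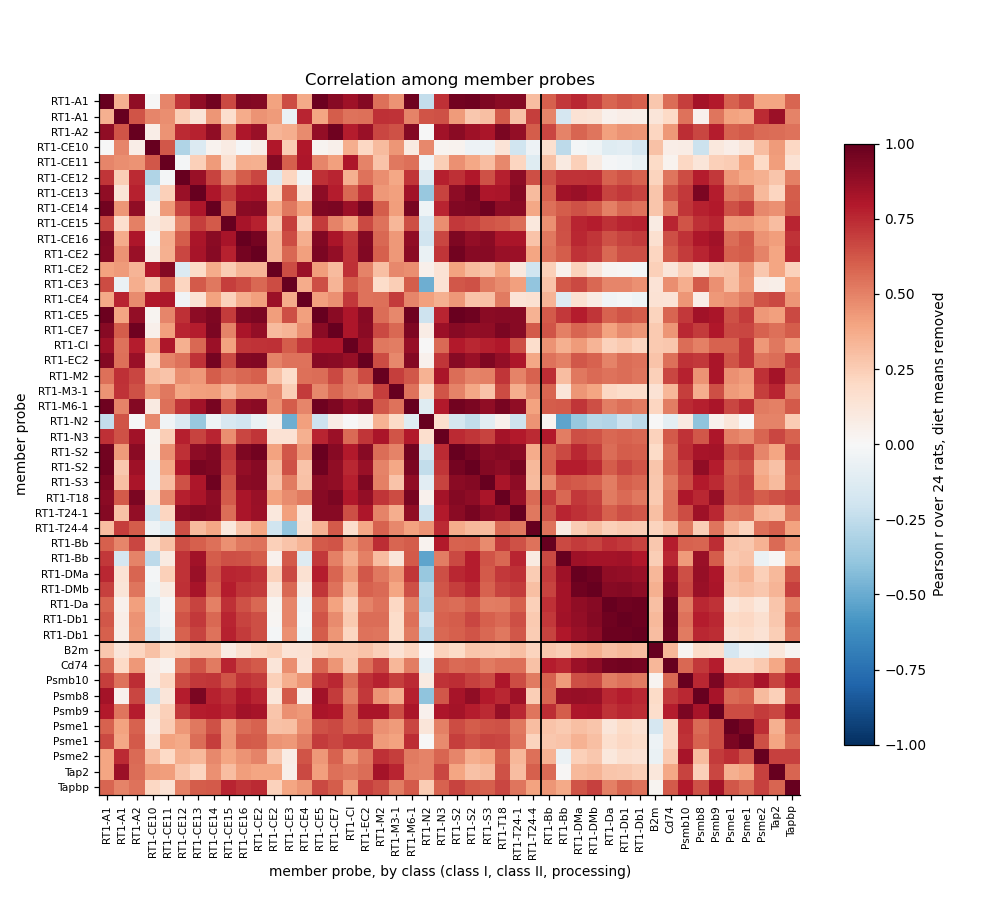
Pearson r over 24 rats, with diet means removed, between the 46 member probes above background on all arrays (both axes, ordered by class with lines between class I, class II and processing; a gene with 2 probes has a line for each). The class II block is dark red throughout (lowest r 0.66), and a pale band marks B2m, with no r above 0.36. The band of RT1-N2 holds both signs, from −0.53 to 0.63.

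Where 2 probes of a gene were above background on all arrays, they gave a check on the probes, with 6 relations adjusted together. The probe pairs of RT1-Db1 (r = 0.98, rho = 0.97), RT1-S2 (0.96, rho = 0.97) and Psme1 (0.94, rho = 0.87) followed each other closely, each with a permutation p of 1e-05 over 24 rats, and those of RT1-Bb less (0.66, rho = 0.65, permutation p = 0.00151 for r). The pair of RT1-A1 had r = 0.36 (rho = 0.29, permutation p = 0.114, adjusted p = 0.137) and that of RT1-CE2 r = 0.34 (rho = 0.36, permutation p = 0.167, adjusted p = 0.167). Within diets the RT1-A1 pair ran from −0.27 in Ch to 0.76 in ChHAYW and the RT1-CE2 pair from −0.44 in ChGENE to 0.80 in ChHAYW. The brighter RT1-A1 probe (chr20:5059904-5059963, plus strand, rn4) was closest among the members to Tap2, at r = 0.86, and the other, shown above, to RT1-CE5, at 0.98. A value given for RT1-A1 or RT1-CE2 is therefore the value of 1 probe.

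Cd74, Psmb9 and B2m were also set against the lists and the brightness of the array, in 27 relations adjusted together. The mean of the 6 Kupffer cell and macrophage markers above background on all arrays had r = 0.84 with Cd74 (rho = 0.82, 24 rats, permutation p = 1e-05 for both, adjusted p = 9e-05; 0.83, 0.82 and 0.94 within Ch, ChGENE and ChHAYW) and 0.81 with Psmb9 (rho = 0.83, adjusted p = 0.000135; 0.69, 0.86 and 0.91 within diets). Without the 2 farthest rats these were 0.77 and 0.81. Among these markers, Cd68, a lysosomal protein of macrophages, had r = 0.85 with Cd74 and 0.88 with Psmb9, and Clec4f, a Kupffer cell lectin, 0.78 and 0.82. The mean of 9 interferon response genes had r = 0.91 with Psmb9 (rho = 0.89, permutation p = 1e-05, adjusted p = 9e-05; 0.78, 0.91 and 0.98 within diets, 0.88 without the 2 rats) and 0.68 with Cd74 (rho = 0.75, permutation p = 0.00037, adjusted p = 0.00167; 0.74, 0.59 and 0.89 within diets). Of these genes, Mx2 had r = 0.34 with Psmb9 and −0.04 with Cd74, and Ifit2 0.45 and 0.09. The others had 0.74 to 0.91 with Psmb9 and 0.53 to 0.89 with Cd74. The mean of the 6 endosomal proteases had r = 0.85 with Psmb9 and 0.76 with Cd74 (rho = 0.87 and 0.76, adjusted p = 9e-05 and 0.00027), led by Ctss, the protease that cuts the invariant chain, at 0.87 and 0.85. The list was not uniform. Ifi30 had r = 0.71 and 0.73, Ctsd 0.70 and 0.44, Lgmn 0.63 and 0.47, Ctsb 0.39 and 0.20 and Ctsl1 −0.04 and 0.05. The T cell marker Cd3d had r = 0.71 with Psmb9 (rho = 0.66, adjusted p = 0.00174; 0.26 within Ch and 0.91 within ChHAYW) and 0.46 with Cd74 (rho = 0.54, adjusted p = 0.0941). Neither gene passed with sinusoidal endothelium (r = 0.34 with Cd74 and 0.17 with Psmb9), hepatocyte markers (0.19 and 0.15), Pax5 (0.15 and 0.10), the proteasome list (−0.05 and −0.15) or the 75th percentile of the array (−0.05 and −0.15), with adjusted p-values from 0.301 to 0.850. Single endothelial markers had r values with Cd74 from 0.05 for Clec4g to 0.48 for Pecam1. B2m passed with none of the 9 measures, its largest r being 0.39 with hepatocyte markers (adjusted p = 0.240).

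Of all genes above background on every array, the 8 whose levels lay closest to Cd74 over the 24 rats were RT1-Db1 (r = 0.96), RT1-Da (0.96), Lsp1 (0.95), Arhgdib (0.92), Cxcl16 (0.90), Slc15a3 (0.90), Ly86 (0.90) and Gbp2 (0.89). Those closest to Psmb9 were Fxyd5 (0.94), Lgals3bp (0.94), Siglec1 (0.94), Clec4a1 (0.94), Laptm5 (0.94), Psmb10 (0.94), Ptpro (0.93) and Tspan13 (0.93). For scale, 14044 probes had a median r of −0.06 with Cd74, with the 5th and 95th percentiles at −0.51 and 0.51, and of −0.07 with Psmb9, with −0.52 and 0.55. Of the genes named, Lsp1 and Arhgdib are genes of leukocytes, Cxcl16 a chemokine and Gbp2 an interferon-inducible GTPase, while Siglec1 is a macrophage lectin, Clec4a1 a lectin of myeloid cells and Laptm5 a lysosomal protein of blood cells.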

How the data were processed

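Liver RNA of 24 rats was hybridised to 1-colour Agilent rat arrays, 1 per rat. The authors scanned the arrays with Feature Extraction, and the deposited values are its processed intensity per spot on a linear scale. Their deposited value table held the same values (0 of 1511424 spots differed), and how the study scaled its arrays is not stated in the sources. Spots marked as outliers were left out unless all spots of a probe were (45 of 728808 probe values), and there were 0 saturated values. The log2 intensity of the deposited files was averaged per probe, the 75th percentile of each array was subtracted, and no dim probes were removed. Each comparison used the 16 arrays of its diets in limma 3.58.1 (R 4.3.3), as the methods name a t-test and their lists a moderated one. Calls needed an adjusted p under 0.05 together with a fold change of 1.3 or more. Correlations, permutation tests and figures used Python 3.11.15, SciPy 1.17.1 and numpy 2.4.6. The fit was tested on simulated data. The precision is that of 8 rats per diet, or less if the arrays of rats with nearly the same levels are not independent.

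The text names the processing genes and class II chains at their brightest probe, the 5 member probes with the smallest p of each comparison, those with the widest spread, the 8 genes nearest to Cd74 and to Psmb9, and up to 4 genes of the pathway lists; the classes came from symbols and array descriptions, and other class I probes were named after their values were seen. The members and lists were chosen with earlier results of these data known. Adgre1, Nlrc5, Ctsl, Marchf1 and Marchf8 had no probe under these symbols and were left out of the lists. Rats that share a replicate number did not deviate together (3, 2 and 3 of 8 pairs had a correlation over 0.1), so the numbers were not treated as pairs. The alternatives were normexp background correction (offset 50), quantile, median and spike-in scaling (10 spike-in probes), a filter on dim probes, the methods' t-test, all 24 arrays in 1 fit, the replicate number as a block, and leaving out each rat.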

Additional observations from a re-analysis of the deposited data

Results flagged for a closer look

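In 150 groups of 8 rats (a member probe above background on all arrays of a diet), 8 held a rat set apart from the others by Dixon's test, which is about the share that chance gives (about 1 in 20), so the rats are given as values only. The gap to the nearest rat as a share of the range is given for each. In ChGENE, rat 8 was the highest for Psme2 (0.708; its level was 5.68 and the others lay at 4.66 to 4.96), the brighter probe of Psme1 (0.574; 5.88 against 5.37 to 5.59), a dim probe of RT1-T24-1 (0.551; 0.90 against −2.24 to −0.83) and RT1-N3 (0.534; −0.13 against −2.97 to −1.64), and it also had the highest Psmb9 level of the 24 rats, 3.49. In Ch, rat 6 was the highest for RT1-DMb (0.599; 0.34 against −1.35 to −0.67) and for the dimmer probe of RT1-Db1 (0.573; 2.55 against 0.52 to 1.39), and rat 8 was the lowest for Psmb9 (0.556; 0.22 against 1.31 to 2.19). In ChHAYW, rat 5 was the highest for the RT1-CE2 probe that also names RT1-A3 (0.541; 3.37 against 1.53 to 2.38).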

How the results depend on the processing

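The count of 0 called members depended on the processing in both comparisons with Ch. In ChGENE against Ch it became 3 with all 24 arrays in 1 fit, 6 under median scaling and 7 under normexp background correction, and 0 to 5 when single rats were left out (5 without Ch rat 3, 3 without ChGENE rat 2). In ChHAYW against Ch it became 4 under median scaling and 9 under normexp, and 0 to 4 without single rats (4 without Ch rat 3, 4 without ChHAYW rat 3). Most of these probes were of the M region or RT1-DOa and above background on no array, and all were lower with kiwifruit except RT1-CE2 in ChHAYW under normexp. In ChGENE against ChHAYW it was 0 under every alternative. With the replicate number as a replicate block 0 members were called in all 3 comparisons. RT1-DOb in ChHAYW against Ch turned from 0.10 to −0.47 under normexp (limma adjusted p = 0.0489).

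Scaling to the spike-in probes moved the median of all probes from −0.16 to 0.31 in ChGENE and from −0.18 to 0.48 in ChHAYW against Ch, and the class I median of ChHAYW from 0.17 to 0.83. The class II median of ChGENE against Ch lay between 0.39 and 0.91 under the scalings and between 0.32 and 0.60 without single rats. Class I probes over the 90th percentile of spread numbered 3 under median and 0 under spike-in scaling, beside 5, and processing probes 6 under normexp, beside 3. The relations past the threshold stayed at 15 under all scalings. Under some alternative 7 of 19 named differences in ChGENE against Ch, 13 of 21 in ChHAYW against Ch and 7 of 22 between the cultivars had the other sign. Over all probes the calls in ChGENE against Ch were 97, and 10197 under normexp, 4623 under median scaling, 2863 with all arrays in 1 fit, 245 by the methods' t-test, 157 after the dim filter, 134 under spike-in scaling, 64 under quantile normalization, 4 with the block and 0 to 4957 without single rats. In ChHAYW against Ch they were 0, and 11480 under normexp, 3240 under median and 2 under spike-in scaling and 0 to 4588 without single rats. Between the cultivars they were 2, and 21 after the dim filter, 18 under quantile normalization, 11 under normexp, 10 under median scaling, 8 in 1 fit, 1 by the t-test, 0 under spike-in scaling and with the block, and 0 to 33 without single rats. The cause of these changes was not tested. Signal over background limits the 7 member probes above background on no array, which have no measured level here.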
